A study of Mus musculus with 4 samples.

Results

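Amh, Dhh, Ptgds, Cst9, Cbln4, Mro and Aard are genes of Sertoli cell differentiation, and their RNA was followed here through the cell types of mouse gonads that either carried or lacked the miR-17~92 microRNA cluster. The 7 genes were taken by name, with no threshold on a measured value but with earlier results of these data known, from the 21495 genes of a 10x Genomics single-cell table of gonads with their adjoining mesonephros. XY KO embryos came from G4 embryonic stem cells (a C57BL/6J-129 F1 hybrid line) with a homozygous CRISPR deletion of the cluster, turned into embryos by tetraploid complementation (the mutants called the E11.5 KO and the E11.75 KO below), and were collected at E11.5 and E11.75. XY control embryos came from the unedited G4 cells and were collected at E11.5, and XX control embryos of E11.5 came from crosses of C57BL/6J and 129 mice. For every sample the labels name the strain as C57BL/6 x 129S4/SvJae. The cells were fixed in methanol. Embryos of one stem cell line are copies of one clone, and each group was a single pool of gonad pairs. The 2 technical replicates of 3 of the groups, called runs below, belong to 1 sample each. No sample replicate was therefore available, no difference could be tested, and the intervals given are 95% intervals for counting error only. The KO stage of E11.75 had no control of its own age, so deletion and stage cannot be told apart there.

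Sertoli cells are the supporting cells of the fetal testis. In XY gonads a short pulse of SRY turns on SOX9 in pre-supporting cells, which then switch on a set of secreted and structural products, whereas in XX gonads the same progenitors become pregranulosa cells marked by FOXL2 and follistatin. AMH is the hormone that removes the Müllerian duct, DHH is the hedgehog ligand through which Sertoli cells act on Leydig cells, and the enzyme encoded by Ptgds makes prostaglandin D2, a signal that feeds back on SOX9. Cst9 encodes a testis cystatin, Cbln4 a secreted protein of the cerebellin family, Mro the nuclear protein maestro and Aard a small protein rich in alanine and arginine, all known from their high RNA levels in early Sertoli cells.

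The deleted cluster encodes the following mature microRNAs, shown because their seeds (bases 2 to 8, in capitals) decide which transcripts can carry a matching site; they fall into 4 seed groups and are given as in RefSeq on GRCm38.p6.
miR-17-5p: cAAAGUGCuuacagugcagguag
miR-20a-5p: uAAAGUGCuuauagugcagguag
miR-18a-5p: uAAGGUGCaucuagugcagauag
miR-19a-3p: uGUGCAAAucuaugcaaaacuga
miR-19b-3p: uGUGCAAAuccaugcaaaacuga
miR-92a-3p: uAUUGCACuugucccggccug

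Of the 6 genes with an annotated 3′ untranslated region, 2 had a match to a seed in the longest one, Cbln4 and Dhh, and 4 had none. Amh has no untranslated bases after its stop codon in the annotation, so it offered none to search. The Cbln4 region of 1137 bases held an 8-base site for miR-92a-3p at base 1048 and a 7-base site for miR-17-5p and miR-20a-5p at base 885. The Dhh region of 2783 bases held 7-base sites for miR-18a-5p at bases 502 and 2520. The sites are in capitals below. Over all 17348 genes with such a region, 12.7% had an 8-base site for one of these seeds and 45.2% had a site of either length, so the matches are a description of the letters and not a sign of control.
Cbln4, miR-92a-3p site: aactaaatttaGTGCAATAtcttattttgt
Cbln4, miR-17-5p and miR-20a-5p site: ttcactatgacCACTTTAttaactggaga
Dhh, first miR-18a-5p site: atccgagtccaCACCTTActtccaatttg
Dhh, second miR-18a-5p site: ttggccgccgaGCACCTTccaaccgcagc

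Sequence directly before the RefSeq start was held for 4 of the 7 genes (Dhh, Ptgds, Cst9 and Cbln4). The 250 bases were searched on both strands for a motif bound by SOX factors, AACAAT. The motif of SF1, which is the product of Nr5a1, was spelled AAGGTCA in this search. For the factors of the GATA family the letters were AGATAA. Of the 4 stretches, 1 had any match, that of Cbln4, which held the SOX letters on its opposite strand (in capitals below), and 9.42% of all 32851 promoters contain them, as 4.08% contain those of SF1 and 9.99% those of GATA factors. The stretches of Cbln4 and Cst9 are shown because Cbln4 departed from the other genes in the older KO sample and Cst9 gave the most UMIs of the 4. The Cbln4 stretch lies at chr2:172043467-172043716 on the minus strand and the Cst9 stretch at chr2:148834897-148835146 on the plus strand.
Cbln4: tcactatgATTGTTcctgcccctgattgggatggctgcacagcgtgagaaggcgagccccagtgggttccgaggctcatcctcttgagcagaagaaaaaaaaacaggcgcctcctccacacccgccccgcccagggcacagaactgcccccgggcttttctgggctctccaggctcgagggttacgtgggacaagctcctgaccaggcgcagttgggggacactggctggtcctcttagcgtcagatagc
Cst9: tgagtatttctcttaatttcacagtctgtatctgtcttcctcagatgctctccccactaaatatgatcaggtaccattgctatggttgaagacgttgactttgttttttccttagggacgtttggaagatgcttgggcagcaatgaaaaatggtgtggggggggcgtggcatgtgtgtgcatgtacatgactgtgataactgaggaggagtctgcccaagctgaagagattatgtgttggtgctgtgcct

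The table held 52745 cells, from 3669 in XX control to 23527 in XY control, with a median of 3893 to 4763 transcript molecules (unique molecular identifiers, UMIs) per cell in the XY samples and 15509 in XX control. Mir17hg, the host transcript of the deleted microRNAs, stood at 19.8 CPM (a gene's UMIs scaled to the same total in each pool) in XY control, 156 in the E11.5 KO, 161 in the E11.75 KO and 18.2 in XX control. These are tags from transcript ends that may lie outside the deleted stretch, so they do not check the deletion, although they set both KO samples apart from both controls. Any pair of libraries, the runs of one sample included, shared at most 0.687% of the cell barcodes of the smaller one. The runs of a sample thus hold different cells. Cell types are those the authors deposited. Their Supporting cells are called Sertoli cells here and their bipotential progenitors pre-supporting cells, and the clustering may have used the 7 genes, so that a higher level in Sertoli cells is no finding.

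Sertoli cells numbered 752 in XY control, 24 in the E11.5 KO, 168 in the E11.75 KO and 2 in XX control. A list of 8 other Sertoli markers (Sox9, Sox8, Fgf9, Inhbb, Vnn1, Col9a3, Hsd17b3 and Cldn11) summed to 1565 CPM in the control Sertoli cells, 700.5 in the E11.5 KO and 1210 in the E11.75 KO. All 8 were detected in XY control and the E11.75 KO but 5 of 8 in the E11.5 KO, and in that sample 2 of 8 were highest in Sertoli cells, against 5 of 8 in XY control and 4 of 8 in the E11.75 KO. The pools held 4152994, 151331 and 1026574 UMIs in that order, and fewer markers can be detected in a smaller pool. Markers of pregranulosa cells (8 genes, Foxl2 and Fst among them) were also present in cells with the Sertoli label. They summed to 295.7, 1130 and 884.5 CPM in XY control, the E11.5 KO and the E11.75 KO, with 8, 7 and 8 of the 8 detected. Some of the 8 also serve as markers of pre-supporting cells, where the list summed to 1096, 1362 and 2002 CPM. The sum is thus not particular to pregranulosa cells. In the Sertoli cells a list for mesonephric tubules, Emx2 among them, summed to 129.1, 330.4 and 382.8 CPM (5, 3 and 4 of 5 detected). The same list summed to 311.5, 349.3 and 444.1 CPM in pre-supporting cells and to 113.8, 79.6 and 110.2 CPM in the mesonephros. A list for neural crest glia summed to 62.4, 0 and 36.0 CPM (5, 0 and 3 of 5 detected) in Sertoli cells. It shares Sox10 with the further Sertoli genes read below. Germ cell markers in Sertoli cells summed to 67.4, 13.2 and 34.1 CPM (6, 2 and 6 of 6 detected). Adrenal steroid markers summed to 87.4, 99.1 and 23.4 CPM (4, 2 and 3 of 4 detected). Immune markers (10.6, 0 and 1.95 CPM) and endothelial markers (21.4, 19.8 and 37.0 CPM) were low in all 3 samples, and interstitial markers summed to 207.6, 152 and 304.9 CPM and erythroid ones to 359.3, 284.1 and 438.4 CPM. Their median mitochondrial share was 4.53%, 4.56% and 6.20%. The part of any of these in the results below was not tested.

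In XY control all 7 genes were highest in Sertoli cells, and for each the Poisson interval lay clear of that of the next cell type. Amh stood at 72.0 CPM and then at 1.72 in immune cells, and Ptgds at 224.7 CPM and then at 5.86 in adrenal cells. Dhh stood at 115.8 CPM with endothelial cells next at 8.39, and Aard at 562.2 CPM with the supporting-like cells (SLCs) next at 45.6. The other 3 genes had pre-supporting cells in second place, with Cst9 at 459.7 and 65.8 CPM, Cbln4 at 92.9 and 29.2, and Mro at 80.7 and 20.04. Sertoli cells exceeded pre-supporting cells 96.2-fold for Dhh, 49.4-fold for Amh, 39.8-fold for Ptgds and 17.7-fold for Aard, but 6.98-fold for Cst9, 4.02-fold for Mro and 3.18-fold for Cbln4. Sox9, for comparison, exceeded by 4.73-fold.

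**Figure D1:**
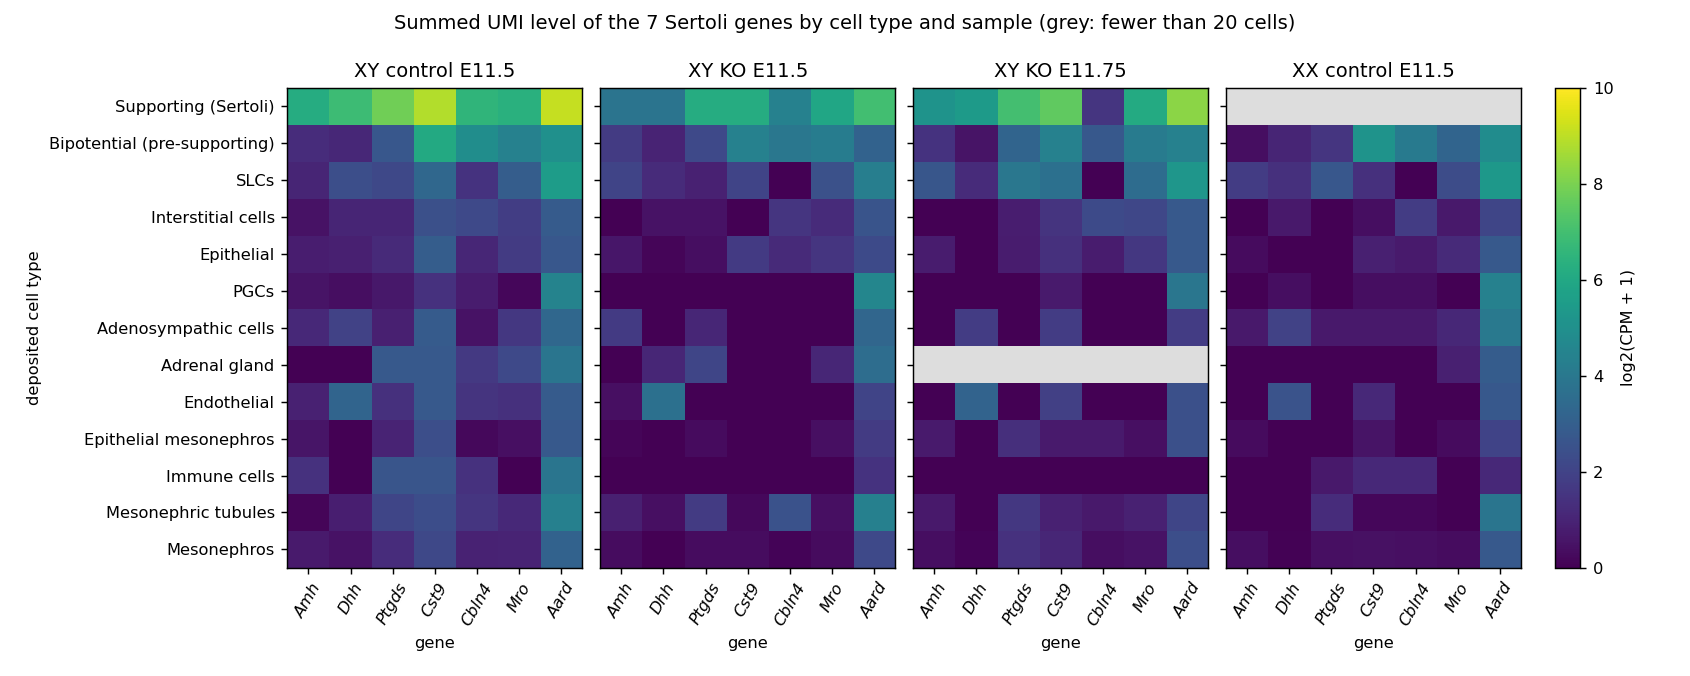
Level of each of the 7 genes (columns) in each deposited cell type (lines) of the 4 samples (panels), as log2(CPM + 1) of the summed UMIs, with groups of fewer than 20 cells in grey. Sertoli cells form the brightest line of XY control for every gene, and Cbln4 is the exception in the E11.75 KO, where it stood at 1.95 CPM.

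Outside the Sertoli lineage Dhh had a second site in endothelial cells, where its level in both KO samples was close to that of XY control. It measured 8.39 CPM (46 UMIs) in XY control, 11.84 (38 UMIs) in the E11.5 KO, 8.05 (9 UMIs) in the E11.75 KO and 4.85 (12 UMIs) in XX control, and the intervals of all 4 samples overlapped. Of all Dhh UMIs, endothelial cells held 7.73% in XY control but 67.9% in the E11.5 KO, 15.5% in the E11.75 KO and 40.0% in XX control. Aard was the broadest of the 7. In SLCs it measured 45.6 CPM in XY control, 18.6 in the E11.5 KO, 37.4 in the E11.75 KO and 39.5 in XX control, and in primordial germ cells (PGCs) 21.2, 23.0, 14.1 and 19.9 CPM in the same order. The germ cell levels overlapped in their intervals, whereas that of SLCs in the E11.5 KO lay below both XY control and XX control. Mesonephric tubule cells held Aard at 19.7 CPM in both XY samples of E11.5, at 3.25 in the E11.75 KO and at 13.9 in XX control.

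The level of free RNA was read from cells of the mesonephros proper, which were taken to lack these products. For Aard this need not hold, since all gonadal types together held 40.1% of its UMIs in the E11.5 KO. Of those cells in XY control, with a median of 3573 UMIs, 0.153% had a UMI of Dhh, 0.234% of Amh, 0.333% of Cbln4, 0.387% of Mro, 0.513% of Ptgds, 1.32% of Cst9 and 2.91% of Aard. The control Sertoli cells, with a median of 5096 UMIs, had a UMI of Amh in 22.5%, of Cbln4 in 32.5%, of Mro in 32.9%, of Dhh in 36.7%, of Ptgds in 45.9%, of Cst9 in 56.9% and of Aard in 80.1%. In the mesonephros of the E11.5 KO (median 4586 UMIs) the shares ran from 0.0113% for Dhh to 1.75% for Aard, and in that of the E11.75 KO (median 3293 UMIs) from 0.0259% to 1.53%, against Sertoli medians of 6003 and 5570 UMIs. At the deposited depth each share in Sertoli cells lay above that of the same gene in the mesonephros of its sample. At an equal depth of 3000 UMIs per cell this no longer held for Amh in the E11.5 KO, where 0 of 24 Sertoli cells had a UMI, and for Cbln4 in the E11.75 KO the intervals overlapped (0.614% against 0.0441%). Shares of cells at the deposited depth are given below together with those after every cell had been cut down at random to 3000 UMIs, which left out 51, 0 and 5 shallower Sertoli cells of XY control, the E11.5 KO and the E11.75 KO.

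The first question of the design was whether the few KO cells with the Sertoli label carried these products. The paper reports Sertoli cells at E11.5 in XY control alone. The label thus does not show that such cells had formed in the E11.5 KO. In the E11.5 KO each of the 7 genes had a UMI in these cells. Of the 7, 6 were at least 2-fold lower than in XY control, where 14.7% of all genes tested were. Mro was the one whose ratio had an interval that included 0, and Cbln4 rested on 3 UMIs. The 24 cells gave 57 UMIs of the 7 genes in 87.5% of the cells. At the control level they would have given 10.9 UMIs of Amh and 17.5 of Dhh, and gave 2 of each.

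Among the hormones, Amh measured 72.0 CPM in XY control Sertoli cells, 13.2 in the E11.5 KO and 34.1 in the E11.75 KO, with intervals of 64.1 to 80.6, 1.60 to 47.7 and 23.8 to 47.4. The levels of both KO samples lay below the control interval. The log2 ratio over XY control was -2.13 (-5.50 to -0.58) at E11.5 and -1.06 (-1.63 to -0.57) at E11.75. A UMI of Amh was found in 22.5%, 8.33% and 16.1% of these cells, and in 15.6%, 0% and 10.4% at 3000 UMIs, where 0 of 24 cells allows a share of up to 12.5% on the limit of 3 counts and of 14.2% on the Clopper-Pearson interval. Amh (ENSMUSG00000035262) lies at chr10:80805243-80807648 on the plus strand of mm10 with 5 exons.

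Dhh followed the same order, with 115.8 CPM in XY control, 13.2 in the E11.5 KO and 42.9 in the E11.75 KO. The intervals of XY control (105.7 to 126.6) and of the E11.75 KO (31.1 to 57.5) did not meet. Its log2 ratio was -2.81 (-6.18 to -1.27) and -1.42 (-1.91 to -0.99). In the E11.5 KO both UMIs came from run 2, which taken alone in both samples gave -1.28, so its ratio there rests in large part on the 0 UMIs of run 1. Cells with a UMI of Dhh made up 36.7%, 8.33% and 19.6%, and 26.3%, 8.33% and 9.20% at 3000 UMIs. The gene (ENSMUSG00000023000, chr15:98891152-98898540, minus strand, 3 exons) overlaps Rhebl1 on the same strand for 3389 bases, so the split of reads between both is uncertain.

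Ptgds differed less. It measured 224.7 CPM in XY control, 72.7 in the E11.5 KO and 126.6 in the E11.75 KO, from 933, 11 and 130 UMIs. The log2 ratio was -1.57 (-2.64 to -0.78) and -0.82 (-1.10 to -0.56), so that the older sample missed the 2-fold threshold while its interval lay below 0. The share of cells with a UMI was 45.9%, 29.2% and 37.5%, and 34.7%, 20.8% and 25.2% at 3000 UMIs. Ptgds (ENSMUSG00000015090) lies at chr2:25466709-25470046 on the minus strand with 7 exons.

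The cystatin Cst9 measured 459.7 CPM in XY control, 72.7 in the E11.5 KO and 187.0 in the E11.75 KO, from 1909, 11 and 192 UMIs. Of the 11 UMIs in the E11.5 KO, 6 came from a single cell, and its runs gave 2 and 9. The log2 ratio was -2.60 (-3.67 to -1.82) and -1.29 (-1.52 to -1.08), and by run of the E11.5 KO it was -4.13 and -1.39. Both the share of cells and the number of UMIs in a positive cell were lower in KO, at 56.9%, 20.8% and 39.9% of cells and 4.46, 2.2 and 2.87 UMIs. At 3000 UMIs the shares were 49.8%, 12.5% and 26.4%. Cst9 (ENSMUSG00000027445) lies at chr2:148835147-148838738 on the plus strand with 3 exons.

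Aard, read from the most UMIs (2335, 19 and 316), measured 562.2 CPM in XY control, 125.6 in the E11.5 KO and 307.8 in the E11.75 KO. Its intervals (539.7 to 585.5, 75.6 to 196.1 and 274.8 to 343.7) did not overlap between any of the samples. The log2 ratio was -2.13 (-2.90 to -1.52) and -0.87 (-1.04 to -0.70), again short of 2-fold at E11.75. A UMI of Aard was found in 80.1%, 50% and 65.5% of Sertoli cells, and in 68.6%, 29.2% and 46.0% at 3000 UMIs. Aard (ENSMUSG00000068522) lies at chr15:52040107-52045722 on the plus strand with 2 exons.

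Mro had the ratios closest to 0. It measured 80.7 CPM (72.3 to 89.8) in XY control, 59.5 (27.2 to 112.9) in the E11.5 KO and 69.2 (54.0 to 87.2) in the E11.75 KO, and the 3 intervals overlapped. The log2 ratio was -0.36 (-1.58 to 0.50) and -0.21 (-0.61 to 0.15), which leaves room for a level lower by up to 2.99-fold at E11.5 and 1.53-fold at E11.75. The runs of the E11.5 KO lay on opposite sides of the control, at 39.7 CPM (4 UMIs) and 99.1 CPM (5 UMIs), with ratios of -0.88 and 0.45 by run. The share of cells with a UMI was 32.9%, 37.5% and 28.6%, and 19.7%, 16.7% and 19.6% at 3000 UMIs. Of the UMIs of the 7 genes, those of Mro made up 5.02% in XY control Sertoli cells, 15.8% in the E11.5 KO and 8.99% in the E11.75 KO. Mro (ENSMUSG00000064036) lies at chr18:73859385-73881333 on the plus strand with 8 exons.

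Cbln4 departed from the others in the older KO sample. It measured 92.9 CPM (386 UMIs) in XY control, 19.8 (3 UMIs) in the E11.5 KO and 1.95 (2 UMIs) in the E11.75 KO. At the control level 95.4 UMIs would have been seen in the E11.75 KO. The log2 ratio was -2.01 (-4.51 to -0.67) and -5.26 (-8.63 to -3.71), the upper bound of the latter lying below the lower bounds of the other 6 genes in that sample. A UMI of Cbln4 was found in 32.5% of control Sertoli cells, in 12.5% of those of the E11.5 KO and in 1.19% of those of the E11.75 KO, where 0.104% of mesonephros cells had one. At 3000 UMIs the shares were 19.7%, 4.17% and 0.614%. Its part in the UMIs of the 7 genes was 5.78% in XY control and 0.253% in the E11.75 KO. Cbln4 (ENSMUSG00000067578) lies at chr2:172036233-172043466 on the minus strand with 3 exons.

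**Figure D2:**
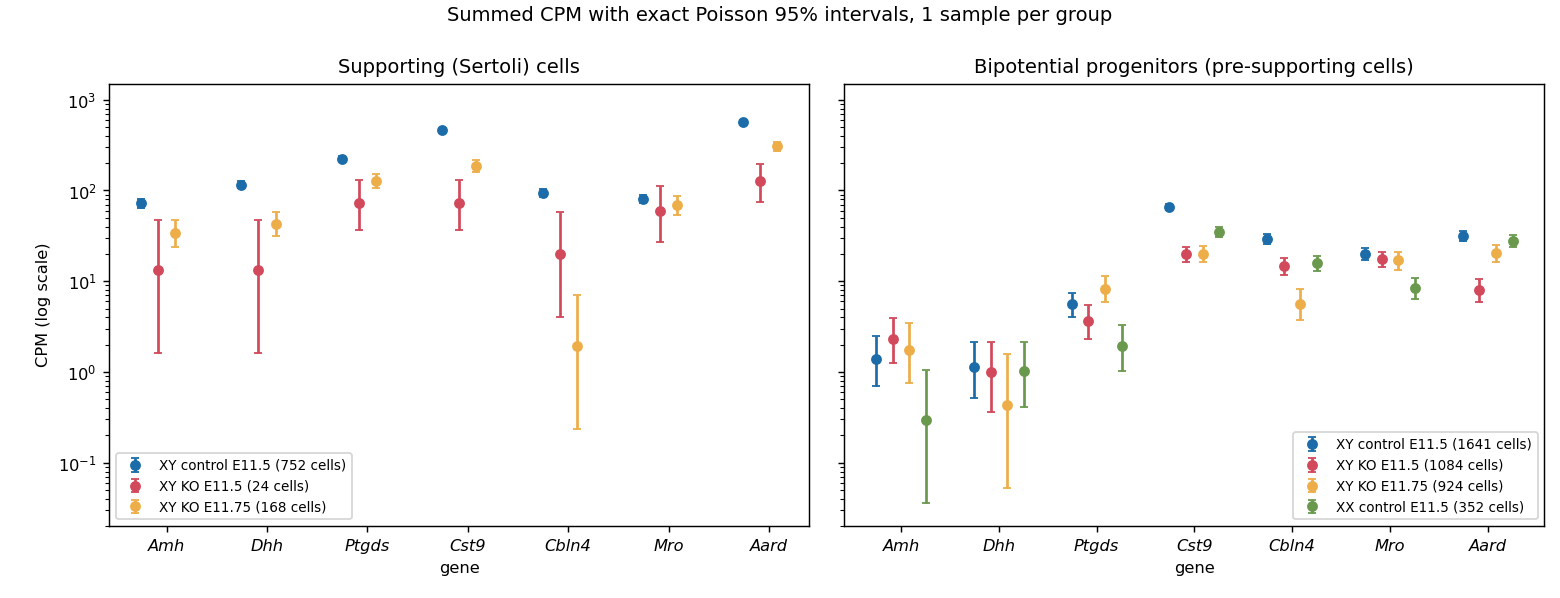
CPM on a log scale of the 7 genes in Sertoli cells (left) and pre-supporting cells (right), 1 point per sample with its exact Poisson 95% interval. In Sertoli cells the XY KO points lie below XY control for every gene, by little for Mro (59.5 and 69.2 against 80.7 CPM) and by most for Cbln4 at E11.75 (1.95 against 92.9 CPM).

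Over the 7 genes, 6 were at least 2-fold lower in the E11.5 KO Sertoli cells (with at least 20 UMIs over both samples), where 14.7% of the 10763 genes tested were. The median log2 ratio was -2.13 against -0.01 for all genes. Each of the 7 gave fewer than 20 UMIs in the E11.5 KO, from 2 (Amh and Dhh) to 19 (Aard). They thus met the minimum through XY control, where they are high, and the count is a description only. With a prior count of 5 in place of 0.5, Amh (-0.66) and Cbln4 (-0.83) missed 2-fold there and 4 genes remained. By run of both samples the same 6 genes stayed at least 2-fold lower, although Amh moved from -2.38 in run 1 to -1.15 in run 2, with 1 UMI of the KO in each. In the E11.75 KO the count was 4 of 7, where 3.89% of 11220 genes were, with a median of -1.06. Amh was near the threshold in that sample, at -0.91 with a prior count of 5 and at -0.93 against run 2 of XY control alone. All genes there had a median of 0.21, so that relative to the median gene Aard stood at -1.08, Ptgds at -1.03 and Mro at -0.43. With TMM scaling, which removes most of that shift, Aard (-1.13) and Ptgds (-1.09) also passed 2-fold and the count rose to 6 of 7. Over all genes that scaling turned 436 lower and 1043 higher calls into 805 and 550. The comparisons share the XY control sample, so a value high by chance there would lower both ratios of that gene.

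**Figure D3:**
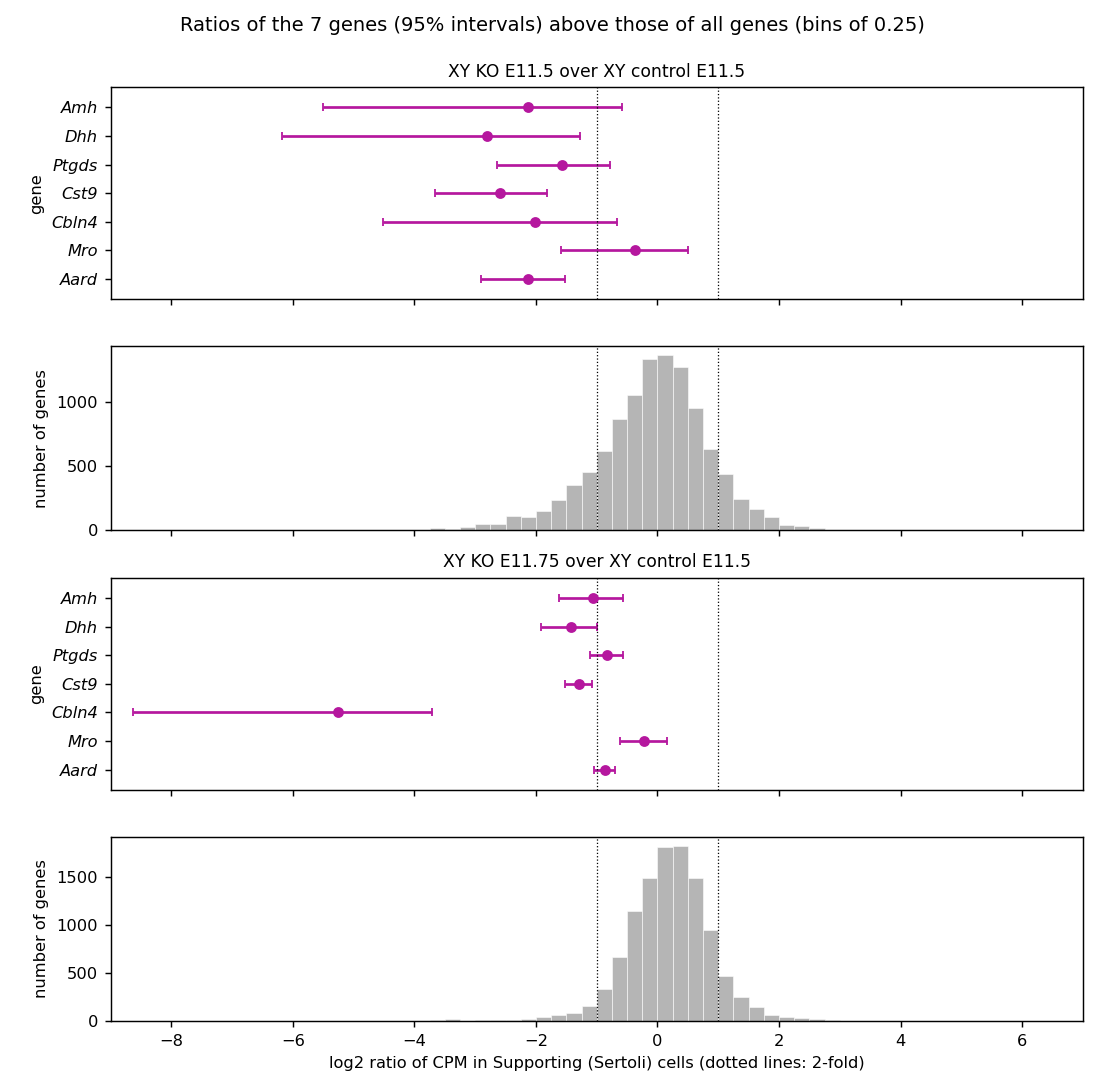
Log2 ratios of the 7 genes in Sertoli cells of the E11.5 KO (upper pair) and the E11.75 KO (lower pair) over XY control, as points with exact 95% intervals, above a histogram of the ratios of all genes with at least 20 UMIs. Dotted lines mark 2-fold, and Cbln4 at E11.75 lies at -5.26, outside the bulk of the histogram.

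Set side by side, the KO samples had intervals of their log2 ratio that excluded 0 for Cst9, Aard and Cbln4. E11.75 exceeded E11.5 by a log2 ratio of 1.30 (0.49 to 2.39) for Cst9 and 1.26 (0.63 to 2.05) for Aard, and lay below it by a ratio of -3.25 (-6.93 to -0.22) for Cbln4, from 2 and 3 UMIs. In a comparison added after the values were seen, each run of the E11.5 KO was taken alone. For Cst9 the ratio was then 2.92 (1.37 to 6.29) against run 1, which held 2 UMIs, and -0.0056 (-0.89 to 1.22) against run 2, which held 9, so the difference rests on run 1. For Aard it was 1.44 (0.64 to 2.51) and 0.87 (-0.04 to 2.18), and for Cbln4 the interval included 0 against either run. For Amh (1.07, -0.59 to 4.47), Dhh (1.39, -0.24 to 4.79), Ptgds (0.74, -0.09 to 1.84) and Mro (0.15, -0.79 to 1.40) the interval included 0. With 2 UMIs each of Amh and Dhh at E11.5, a difference between the stages was not detectable for these at this depth.

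SOX9 acts above these genes, and within cells of the Sertoli label its RNA was closer to control than that of 6 of them. Sox9 measured 944.1 CPM in XY control Sertoli cells, 555.1 in the E11.5 KO and 790.0 in the E11.75 KO, with log2 ratios of -0.76 (-1.10 to -0.45) and -0.26 (-0.37 to -0.15). Mro was the exception (-0.36 and -0.21). The label may rest on Sox9 itself, which had a UMI in 94.6%, 79.2% and 91.7% of the Sertoli cells. In pre-supporting cells these shares were 27.7%, 7.75% and 17.8%. The level of Sox9 within the label is therefore no finding. In pre-supporting cells the ratio of Sox9 was -3.31 (-3.59 to -3.05) and -1.18 (-1.34 to -1.02), lower at E11.5 than that of any of the 7 genes, and over all gonadal cells, those with the Sertoli label included, it was -3.001 and -0.82. Sox8, the partner of Sox9 in Sertoli cells, gave 99 UMIs in XY control, 0 in the E11.5 KO and 5 in the E11.75 KO. At the control level of 23.8 CPM, 3.61 UMIs would have been seen in the E11.5 KO. The exact interval of its log2 ratio reached up to 0.06 there, so the direction is not settled at this depth. Foxl2, the pregranulosa factor, measured 0.722, 19.8 and 30.2 CPM in the Sertoli cells of the same samples. Fst, which encodes follistatin, measured 4.09, 52.9 and 145.1 CPM there. In pre-supporting cells Foxl2 measured 10.15, 13.4 and 45.1 CPM and Fst 116.6, 110.8 and 402.5 CPM. The RNA of neither was thus particular to KO cells with the Sertoli label. At E11.5, though, both were above XY control within that label, Foxl2 from 3 UMIs. In pre-supporting cells of that stage Fst was not above XY control, and the intervals of Foxl2 overlapped.

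Other genes were read as lists. Of 23 further Sertoli genes, 20 could be compared in each KO sample. At E11.5, 14 were lower and 2 higher, and at E11.75, 7 were lower and 1 higher, with median log2 ratios of -1.51 and -0.46. Of all genes tested in Sertoli cells, 14.7% were lower and 9.9% higher at E11.5, and 3.89% were lower and 9.3% higher at E11.75. With TMM scaling 9 of the 20 were lower at E11.75, where 7.18% of all genes were. Among 8 regulators upstream (Sry, Sox9, Sox8, Nr5a1, Gata4, Wt1, Fgf9 and Dmrt1), 2 were lower and 1 higher at E11.5, and 1 was lower at E11.75. Sox8 is among those counted as lower at E11.5, with the interval just given. Of the pregranulosa list, 4 of the 6 compared were higher at E11.5 and 6 of 8 at E11.75, and none was lower. With TMM scaling both of these counts were the same, while the share of all genes that were higher at E11.75 was 4.90%.

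How many of the 7 genes a single Sertoli cell carried also differed. At an equal depth of 3000 UMIs, 70.6% of control Sertoli cells (67.1% to 74.0%, 495 of 701) had a UMI of at least 2 of the genes, against 16.7% in the E11.5 KO (4.74% to 37.4%, 4 of 24) and 41.1% in the E11.75 KO (33.5% to 49.1%, 67 of 163). The intervals of XY control and of both KO samples did not overlap, and those of the KO samples did. Without thinning the shares were 83.4%, 41.7% and 63.7%, with medians of 3, 1 and 2 genes per cell. All 7 genes were seen together in 14 of the 752 control cells and in none of the KO cells, where the highest number was 4 at E11.5 and 6 at E11.75.

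**Figure D4:**
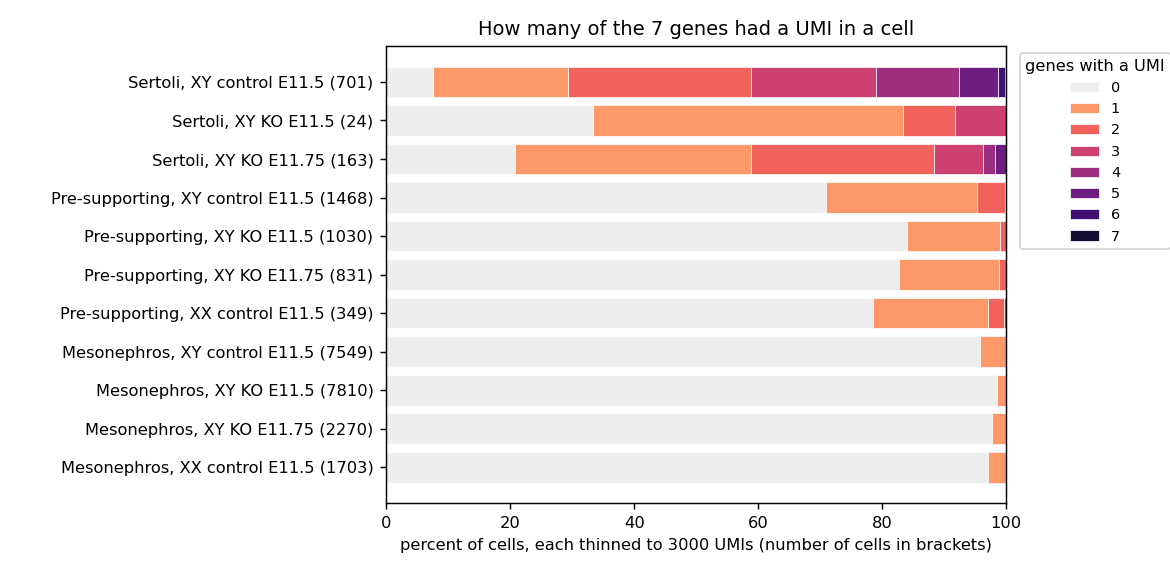
Percent of cells (horizontal axis) by how many of the 7 genes had at least 1 UMI (colour), after thinning each cell to 3000 UMIs. The share with 2 or more is 70.6% in control Sertoli cells, 16.7% and 41.1% in those of the KO samples, 4.63% or less in pre-supporting cells and under 0.1% in mesonephros cells.

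The 24 Sertoli cells of the E11.5 KO were looked at one by one. They held between 3895 and 12618 UMIs. Aard was on in 12 cells, Mro in 9, Ptgds in 7, Cst9 in 5, Cbln4 in 3, and Amh and Dhh in 2 each. One of the genes at least was on in 21 of the 24, and a gene other than Aard in 15. Sox9 was seen together with one of the genes in 17 cells and was without a UMI in 5, of which 4 carried one of the genes. Fst had a UMI in 6 of the 24 and Foxl2 in 2. Of the pre-supporting cells of this sample, 17.8% had a UMI of Fst and 5.81% of Foxl2, and of the mesonephros cells 9.55% and 0.305%. At 3000 UMIs the share with Fst was 12.5% (2.66% to 32.4%) in the Sertoli cells and 14.2% (12.1% to 16.5%) in pre-supporting cells. It was 6.53% in mesonephros cells and 0.864% (0.396% to 1.63%) in interstitial cells. The interval of the Sertoli cells thus met the levels in pre-supporting cells and the mesonephros and lay above that in interstitial cells.

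**Figure D5:**
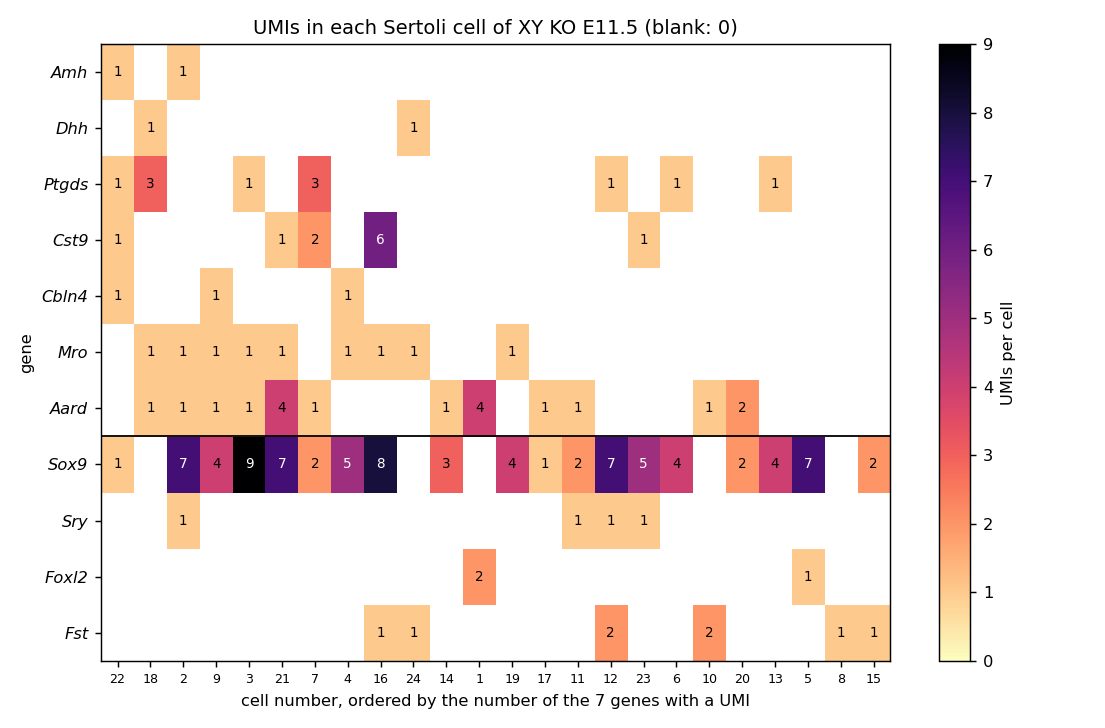
UMIs of the 7 genes (above the line) and of Sox9, Sry, Foxl2 and Fst in each of the 24 Sertoli cells of the E11.5 KO, 1 column per cell. Most filled squares of the 7 genes hold 1 UMI, Aard is on in 12 cells and Amh and Dhh in 2 each.

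In the E11.75 KO cells with a UMI of Fst were compared with those without. At 3000 UMIs, 25.0% of the 40 cells with Fst had at least 2 of the 7 genes (12.7% to 41.2%), against 46.3% of the 123 without (37.3% to 55.6%), and the intervals overlapped. Without thinning the shares were 41.1% of 56 cells (28.1% to 55.0%) and 75.0% of 112 (65.9% to 82.7%), and the intervals did not meet. For Foxl2 the shares were 23.1% of 13 cells and 42.7% of the rest, and without thinning 40.9% of 22 cells and 67.1% of 146. The split by Fst ran the other way at 3000 UMIs in XY control, at 6 of 6 cells with Fst and 70.4% of 695 without. It did so too in the E11.5 KO, at 33.3% of 3 cells and 14.3% of 21. Without thinning the shares were 91.7% of 12 and 83.2% of 740 in XY control. In the E11.5 KO they were 33.3% of 6 and 44.4% of 18. These are counts within single samples and were not tested. Pairs of the genes were also counted within the control Sertoli cells. Of the 109 cells with Amh at 3000 UMIs, 42.2% (32.8% to 52.0%) also had Dhh, against 23.3% of the cells without Amh (upper bound 26.9%), and these intervals did not meet. Nor did those for Cbln4, at 33.0% (24.3% to 42.7%) and 17.2% (14.3% to 20.5%). For Ptgds the shares were 45.9% (36.3% to 55.7%) and 32.6% (28.8% to 36.5%), for Cst9 57.8% and 48.3%, for Mro 22.0% and 19.3% and for Aard 72.5% and 67.9%, and the intervals overlapped for these 4 genes.

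Pre-supporting cells numbered 1641 in XY control, 1084 in the E11.5 KO, 924 in the E11.75 KO and 352 in XX control. They showed which of the genes were on outside the Sertoli label. Of those in XY control, 455 (27.7%) already had a UMI of Sox9, so the pool may hold cells in transition. Cst9, Aard, Cbln4 and Mro were each at 20.04 CPM or more in XY control, whereas Amh (1.40 CPM, 11 UMIs) and Dhh (1.14 CPM, 9 UMIs) were close to the mesonephros level of 0.631 and 0.398 CPM. Cst9 measured 65.8 CPM in XY control, 19.9 in the E11.5 KO, 20.1 in the E11.75 KO and 34.7 in XX control. All of the other samples thus lay below XY control, and the KO samples had the lowest values. Run 2 of XX control, at 24.8 CPM (19.8 to 30.6), overlapped the E11.75 KO (16.2 to 24.6) and both runs of the E11.5 KO. The log2 ratio was -1.72 (-2.02 to -1.44), -1.71 (-2.05 to -1.39) and -0.92.

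Aard in pre-supporting cells measured 31.7 CPM in XY control, 7.96 in the E11.5 KO, 20.3 in the E11.75 KO and 27.7 in XX control. The E11.5 KO alone was more than 2-fold lower, at a log2 ratio of -1.98 (-2.47 to -1.54), and XX control overlapped XY control. Cbln4 measured 29.2, 14.6, 5.67 and 15.8 CPM in the same order. Its ratio was -0.99 (-1.37 to -0.64) at E11.5 and -2.34 (-3.01 to -1.78) at E11.75, so that it was lowest in the older KO sample in this type too. Mro measured 20.04, 17.4, 17 and 8.41 CPM and was lower in XX control alone, at -1.25 (-1.72 to -0.81). Ptgds measured 5.58, 3.65, 8.28 and 1.92 CPM, with a ratio of -1.50 (-2.56 to -0.62) in XX control.

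Counted over the genes with at least 20 UMIs, 2 of 6 were at least 2-fold lower in pre-supporting cells of the E11.5 KO (4.21% of all genes), 2 of 5 in the E11.75 KO (3.13%) and 2 of 5 in XX control (3.27%). The pairs differed, with Cst9 and Aard in the E11.5 KO, Cst9 and Cbln4 in the E11.75 KO, and Mro and Ptgds in XX control. Markers of other cell types were also lower in pre-supporting cells. In the E11.5 KO these were 3 of 5 germ cell markers (median -1.59), 2 of 2 immune (-2.08), 2 of 3 adrenal steroid (-1.93) and 1 of 4 endothelial markers (-0.26). Those of the E11.75 KO were 2 of 6 germ cell (-0.11), 2 of 2 immune (-4.56), 1 of 3 adrenal steroid (-0.96) and 1 of 5 erythroid markers (0.12). In XX control they were 3 of 5 erythroid (-1.24), 2 of 4 endothelial (-0.97) and 1 of 6 germ cell markers (-0.51). Other markers were higher in the E11.75 KO, where 6.66% of all genes were. These were 4 of 8 pregranulosa (median 1.33), 2 of 4 interstitial and 2 of 5 erythroid markers. The same held for 1 of 6 germ cell and 1 of 4 mesonephric tubule markers. In the E11.5 KO 1 of 4 interstitial markers was higher (1.65% of all genes). In XX control 1 of 8 pregranulosa and 1 of 3 adrenal steroid markers were (1.85%). The part of all these markers in the result was not tested. The runs of XX control stood apart for 2 genes, with Cst9 at 45.0 and 24.8 CPM and Cbln4 at 9.65 and 21.6 CPM. Taken alone, these runs gave ratios of -0.39 and -1.56 for Cst9 and of -1.70 and -0.28 for Cbln4, so that neither could be placed on one side of 2-fold. Sox9 in these cells measured 199.6, 20.1, 88.0 and 9.29 CPM, and Sry 14.6, 5.14, 14.4 and 0 CPM.

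Summed over the 6 gonadal types, which sets aside the split into types, fewer cells of a type and less RNA per cell cannot be told apart. All 7 genes were at least 2-fold lower in the E11.5 KO, from -4.61 for Dhh and -4.10 for Ptgds to -1.33 for Mro, where 6.51% of all genes were. In the E11.75 KO, 6 of 7 were lower (3.94% of all genes), from -2.66 for Cbln4 and -2.13 for Dhh to -1.14 for Ptgds, and Mro stood at -0.33. In XX control all 7 were lower (3.99% of all genes), from -4.73 for Amh to -1.54 for Cbln4. Gonadal Amh itself was 8.72 CPM in XY control, 1.09 in the E11.5 KO, 3.34 in the E11.75 KO and 0.303 in XX control, and gonadal Cbln4 17.5, 4.45, 2.74 and 6.01 CPM. The order thus differed between the genes, since Cbln4 was lowest in the E11.75 KO and Amh in XX control. Markers of other cell types were also lower in these sums. Of the immune markers 5 of 5 were lower in both KO samples, with medians of -1.64 and -2.45. Of the germ cell markers 5 of 6 were lower in the E11.5 KO (median -1.17) and 2 of 6 in the E11.75 KO (-0.54), whereas of the endothelial markers 0 of 5 were lower in either. Of the adrenal steroid markers 2 of 3 were lower in each KO sample. Of the neural crest glia markers 2 of 4 were lower in the E11.5 KO (median -0.78) and 1 of 4 in the E11.75 KO (-0.37). Of the mesonephric tubule markers 1 of 5 was lower in the E11.5 KO (median -0.32). In XX control 3 of 5 erythroid, 3 of 4 neural crest glia, 2 of 5 endothelial and 2 of 5 immune markers were lower. So were 1 of 6 germ cell and 1 of 3 adrenal steroid markers in that sample. Other markers were higher in the E11.75 KO (5.39% of all genes), namely 4 of 8 pregranulosa (median 1.53), 2 of 4 interstitial and 2 of 5 erythroid ones. In the E11.5 KO 1 of 8 pregranulosa markers was higher (1.44% of all genes). In XX control 2 of 8 pregranulosa and 1 of 3 adrenal steroid markers were (1.985%). The part of all these markers in the result was not tested.

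The source of the transcripts differed as well. Sertoli cells were 3.20% of all cells in XY control and held 67.7% of the UMIs of the 7 genes (6678 of 9860). In the E11.75 KO they were 1.98% of cells and held 52.8%, and in the E11.5 KO 0.141% of cells and 4.73% (57 of 1205). In XX control 3 of 1256 UMIs lay in the 2 cells with that label.

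Receivers of these signals were measured in the gonadal types. Amhr2, the receptor for AMH, stood at 225.9, 257.7 and 248.4 CPM in Sertoli cells of XY control, the E11.5 KO and the E11.75 KO. Ptch1, the DHH receptor and a target of hedgehog signalling, stood there at 84.5, 59.5 and 100.3 CPM. For both genes the interval of the log2 ratio in Sertoli cells included 0 in each KO sample. Over all gonadal cells Ptch1 stood at 39.3 CPM in XY control, 42.9 in the E11.5 KO and 65.4 in the E11.75 KO, a log2 ratio of 0.13 (0.01 to 0.24) and 0.74 (0.62 to 0.85). In the E11.75 KO it was also above XY control in interstitial cells (77.3 against 39.8 CPM), in pre-supporting cells (58.2 against 36.1) and in the mesonephros (182.1 against 81.1). Amhr2 over all gonadal cells stood at 205.3, 216.4 and 200.3 CPM. Of 8 receptor and target genes compared over all gonadal cells, none was lower in any sample, 1 was higher in the E11.5 KO, where 1.44% of all genes were, and 3 were higher in the E11.75 KO, where 5.39% were. With TMM scaling the E11.75 count was 2, and 3.40% of all genes were higher. In Sertoli cells 1 of 5 was lower in the E11.5 KO (14.7% of all genes) and 1 of 6 higher in the E11.75 KO (9.3%). In pre-supporting cells 2 of 7 were lower in XX control (3.27%). There 1 of 7 was higher in the E11.5 KO (1.65%) and 2 of 7 in the E11.75 KO (6.66%).

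The genes whose pattern was most like each of the 7 were named by the Pearson correlation of log2(CPM + 1) over 50 pools of a cell type in a sample, as a description, since pools share libraries, depth and the clustering. Amh went with Ptgds (0.899), Rnase1 (0.848) and Nipal1 (0.813). Dhh went with Mall (0.923), and Ptgds with Amh and with Mro (0.855). Cst9 went with Gm2044 (0.910), and Cbln4 with Cga (0.878). Mro went with Shbg (0.927) and Tmem114 (0.921), and Aard with Gstm6 (0.913). The least alike of the 7 were Dhh and Cbln4 (0.428).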

How the data were processed

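Cell Ranger 6.1.1 is named per the labels as the counting tool, and the authors filtered, integrated and named the cells with Seurat after removing doublets with DoubletFinder, so no doublet caller was run here. The deposited counts are whole UMIs per gene and cell, not normalized. The deposited cell table gave cell type names and the percent of mitochondrial and haemoglobin UMIs. The methods list the cell numbers of the KO stages the other way round, and the labels were followed. UMIs were summed per sample and type (Python 3.11.15, numpy 2.4.6, pandas 2.3.3, scipy 1.17.1). Levels are CPM with exact Poisson intervals, shares have Clopper-Pearson intervals, and log2 ratios (prior count 0.5) have exact binomial ones. A call is a size threshold and not a test: 2-fold with at least 20 UMIs over both samples. A value of 0 allows up to 3 counts. TMM (edgeR 4.0.16) and DESeq2 1.42.0 size factors in R 4.3.3, other thresholds, depths and runs were alternatives. The code that makes the calls was run on simulated counts, as a check of the code alone. Named are the 7 genes, 9 related ones (Sox9, Sry, Sox8, Foxl2, Fst, Amhr2, Ptch1, Cst12, Cst8) and the 3 genes most alike to each. The genes, though taken by name, and the lists were chosen with earlier results of these data known. Positions follow GENCODE on mm10.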

Additional observations from a re-analysis of the deposited data

Results flagged for a closer look

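In pre-supporting cells the log2 ratios of Ptgds over XY control had opposite signs in the KO samples, at -0.60 (-1.42 to 0.16) in the E11.5 KO and 0.57 (-0.10 to 1.23) in the E11.75 KO, from 22 and 38 UMIs. The difference was not tested, both intervals include 0, and the runs of the E11.5 KO gave -1.60 and 0.24.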

How the results depend on the processing

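No paired analysis was possible because each group is 1 sample. Of 406 values of single genes under alternatives (prior count, scaling, runs, pooled types), 377 stayed within their counting interval and none changed the sign of a called value. In Sertoli cells the number of genes called lower at 2-fold was 6 in the E11.5 KO and 4 in the E11.75 KO. Under the alternatives, which include other fold thresholds and pooled types, it was 4 to 7 and 1 to 6. Moving the threshold to 4-fold left 1 gene in Sertoli cells of the E11.75 KO, 2 in its gonadal types and 1 in its pre-supporting cells, and 0 in pre-supporting cells of the E11.5 KO and of XX control. At 1.5-fold, 4 genes were lower in pre-supporting cells of the E11.5 KO and 4 in those of XX control, and a minimum of 100 UMIs left 1 in XX control. The shares of all genes at these other settings were not counted, so these numbers describe the 7 genes alone. Amh in the E11.75 KO Sertoli cells moved to -0.93 against run 2 of XY control alone. With a prior count of 5 it was -0.91, and in the E11.5 KO Amh was -0.66 and Cbln4 -0.83. Between the KO samples in Sertoli cells, an alternative added after the data were seen took run 2 of the E11.5 KO alone. The ratio of E11.75 over E11.5 then turned to -0.0056 for Cst9, -0.19 for Dhh and -0.65 for Mro. The share of Sertoli cells with at least 2 of the genes depended on depth. In XY control it was 83.4% without thinning, 59.2% at 2000 UMIs, 82.8% at 5000 UMIs and 61.5% without Ptgds. In the E11.75 KO it was 63.7%, 27.5%, 62.3% and 31.3%, and in the E11.5 KO 41.7% without thinning. Sertoli and pre-supporting cells together held 80.1% of the UMIs of the 7 genes in XY control, 38.2% in the E11.5 KO, 75.3% in the E11.75 KO and 48.7% in XX control. The 24 Sertoli cells and 1 sample per group limit every value at E11.5.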

Other observations

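Cst12 and Cst8 lie before Cst9, in this order, on the same strand of chromosome 2. Cst12 in pre-supporting cells measured 4.31 CPM in XY control (34 UMIs), 31.0 in the E11.5 KO (187 UMIs), 28.8 in the E11.75 KO (132 UMIs) and 3.54 in XX control (24 UMIs). Both KO samples lay above both controls, with log2 ratios of 2.83 (2.31 to 3.42) and 2.72 (2.18 to 3.33), while Cst9 was lower there. In Sertoli cells Cst8 measured 180.1, 191.6 and 131.5 CPM in XY control, the E11.5 KO and the E11.75 KO, with log2 ratios of 0.11 (-0.50 to 0.62) and -0.45 (-0.73 to -0.19), where Cst9 stood at -2.60 and -1.29. Over all gonadal cells Cst8 measured 47.3 CPM in XY control and 22.0 in the E11.5 KO, a log2 ratio of -1.10 (-1.24 to -0.97), and 50.4 in the E11.75 KO (0.09). In pre-supporting cells it measured 105.3, 73.1 and 115.3 CPM, with ratios of -0.52 (-0.70 to -0.36) and 0.13, so that Cst8 was lower in the E11.5 KO there as Cst9 was.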
